A study of Mus musculus with 9 samples.

Results

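Enzymes that add or remove methyl and acetyl groups on histones were followed across 3 populations of mouse CD4+ T cells. The genes were chosen by name: symbols in the Kdm, Kmt, Setd, Hdac, Sirt and Kat families, and Ezh1, Ezh2, Suz12, Eed, Ehmt1, Ehmt2, Ep300, Crebbp and Dot1l. Of 71 protein-coding genes that fit this rule, 68 had a probe assigned through a RefSeq accession, among 20659 gene symbols on the array. Kmt2a, Setd1b and Setdb2 were not analysed here. Of the 68 genes, 66 passed the filter on dim probes and were tested. Hdac11, the only class IV deacetylase, and Kdm5d, a Y-linked H3K4 demethylase, were not well above background on any of the 9 arrays.

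Histone tails carry marks that proteins read as signals for or against transcription. Acetyl groups, added by acetyltransferases such as Ep300 and Crebbp and removed by the Hdac enzymes and sirtuins, mark open and active chromatin. Methyl groups act by position: H3K4 methylation marks active promoters and enhancers, H3K36 and H3K79 methylation marks transcribed genes, and H3K9 and H3K27 methylation marks silent ones. In T helper cells the Polycomb repressive complex PRC2, which methylates H3K27, is known for restraining cytokine genes that do not belong to the lineage of the cell.

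Spleen and lymph node cells of BALB/c mice were the source. Th17 cells were sorted as CD3+ CD4+, CD45RB low, with captured IL-17A and no interferon gamma. Th1 cells had the same surface type, with captured interferon gamma and no IL-17A. Naive cells were CD3+ CD4+ and CD45RB high. All groups, naive cells included, had been enriched for CD4+ and then given 10 ng/ml PMA with 500 ng/ml ionomycin for 3 h, which activate T cells without their receptor, so no group was at rest. Each group had 3 one-colour Agilent arrays. The labels give no age and do not say whether replicates were separate animals or sorts, so the p-values rest on the spread among these arrays alone, some or all of which may be technical.

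Levels are given as log2 of the processed intensity over the array's own 75th percentile, and differences are on the same log2 scale. The share of probes well above background ranged from 53.4% to 58.3% over the arrays, and the number of arrays limits the precision. Pearson's r between arrays over the genes tested was 0.982 to 0.992 within groups and 0.927 to 0.972 between them. The genes of the sorted cytokines were high in the group labelled for them, with Il17a at 9.04, 9.16 and 9.51 in Th17 cells, 0.54, -0.43 and -2.40 in Th1 cells and -0.24, -4.69 and -4.16 in naive cells. Ifng was at 2.04, 1.17 and 1.96 in Th17 cells, 9.27, 9.18 and 8.92 in Th1 cells and 1.33, 1.31 and 1.61 in naive cells. Ptprc, which encodes CD45, differed little, at 4.93, 4.59 and 4.88 in Th17 cells, 5.15, 4.66 and 4.43 in Th1 cells and 4.93, 5.05 and 4.78 in naive cells. All 8 CD4 T cell markers were detected, whereas 5 of 7 B cell markers, Ms4a1 among them, were not well above background on any array. The summed level of the B cell list, on the linear scale relative to the 75th percentile, was 0.751 to 1.01 in Th17 cells, 0.931 to 1.15 in Th1 cells and 0.371 to 0.516 in naive cells, and of its 2 genes tested 1, Cd22, was called higher in both. That of the dendritic list, with 2 of its 6 genes not well above background on any array, was 180.0 to 214.8 in Th17 cells, 176.8 to 200.6 in Th1 cells and 161.6 to 168.6 in naive cells. The summed level of the CD8 list, Cd8a and Cd8b1, was 0.0545 to 0.0758 in Th17 cells, 0.0639 to 0.0746 in Th1 cells and 0.573 to 0.685 in naive cells, with Cd8a not well above background on any array. That of the erythroid list was 1.63 to 5.27 in Th17 cells, 0.0502 to 2.47 in Th1 cells and 0.0495 to 0.209 in naive cells. That of the NK list, with 2 of its 4 genes not well above background on any array, was 0.0201 to 0.0685 in Th17 cells, 0.245 to 0.519 in Th1 cells and 0.638 to 0.995 in naive cells, and that of the myeloid list was 20.3 to 30.9 in Th17 cells, 25.9 to 32.0 in Th1 cells and 17.1 to 17.4 in naive cells. The part of these cells in the results below was not tested. In sorted bulk RNA, fewer cells of a type and less RNA per cell cannot be told apart.

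Against naive cells, more of the enzymes fell than rose. In Th17 cells 36 of 66 were called, at an adjusted p under 0.05 from limma, against 54.2% of all 19063 genes tested. Of these, 28 fell and 8 rose, where 29.7% of all genes fell and 24.4% rose. The median difference was -0.24 over the enzymes and -0.09 over all genes. At least 2-fold, 13 fell and 5 rose, against 10.3% and 11.9% of all genes (22.2% together). Arrays of the groups did not overlap for 12 higher and 31 lower enzymes, against 63.3% of all genes. The largest falls were those of Kdm2b, Kmt2c, Hdac6, Hdac5, Kdm1b, Sirt3 and Kat2b, and the largest rises those of Crebbp and Kdm4d. Kdm4d passed the filter on dim probes only through the Th17 and Th1 arrays.

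In Th1 cells 32 of 66 enzymes were called, against 53.9% of all genes. Here 24 fell and 8 rose, with 30.4% and 23.5% of all genes. The median difference was -0.18 over the enzymes and -0.09 over all genes. Beyond 2-fold, 7 fell and 5 rose, against 9.1% and 11.6% of all genes (20.7% together). Arrays of the groups did not overlap for 12 higher and 30 lower enzymes, against 65.4% of all genes. Sirt3, Kmt2c, Kdm2b and Hdac5 had the largest falls, and Kdm4d and Hdac9 the largest rises. Kdm4d passed the filter on dim probes only through the Th17 and Th1 arrays, and Hdac9 only through the Th1 arrays. When the 75th percentile was taken only over probes detected on all 9 arrays, the median difference of all genes was 0.06, and then 13 enzymes were called higher and 16 lower. In Th17 cells that scaling gave 11 higher and 25 lower enzymes, with a median difference of 0.00 over all genes. Of all genes, 5217 were higher and 4926 lower in Th17 cells with it, against 4659 and 5668 without it. Of all genes, 5449 were higher and 4431 lower in Th1 cells with it, against 4483 and 5801 without it.

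Th17 cells were set against Th1 cells directly, and 14 of 66 enzymes were called, against 15.8% of all genes. Crebbp, Sirt2 and Ezh1 were higher in Th17 cells, and 11 enzymes were lower, with backgrounds of 8.28% higher and 7.52% lower. The median difference was -0.08 over the enzymes and 0.01 over all genes. Beyond 2-fold 1 enzyme was higher, Crebbp, and 5 were lower, namely Hdac9, Kdm4d, Kdm1b, Kat2b and Kdm7a, against 3.07% and 3.31% of all genes (6.38% together). Of these, Hdac9 passed the filter on dim probes only through the Th1 arrays. Arrays of the groups did not overlap for 10 higher and 16 lower enzymes, against 35.4% of all genes. With the scaling to always detected probes, 2 enzymes were higher and 12 lower, and 1288 of all genes were higher and 1808 lower, against 1578 and 1434. Both comparisons with naive cells use the same 3 naive arrays, so their values are given side by side, and the direct comparison is the test of a difference between Th17 and Th1 cells.

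The arrays lay on 3 slides. Slide 1 held the naive arrays and Th1 replicate 1, slide 2 held Th1 replicates 2 and 3 with Th17 replicates 1 and 2, and slide 3 held Th17 replicate 3. No slide held Th17 and naive cells together. With slide as a block, 21 enzymes were called in Th17 cells against naive cells, 28 in Th1 cells against naive cells and 9 in Th17 against Th1 cells, where 5239, 7891 and 2143 of all 19063 genes were called. Within slide 1, 21 enzymes and 6546 genes were called in Th1 against naive cells, and within slide 2, 7 enzymes and 1417 genes in Th17 against Th1 cells. Th1 replicate 1 was the only Th1 array on slide 1, so its spread was not measured there and was assumed to equal that of the naive arrays. With the block, too, the Th1 difference from naive cells rests on that 1 array, the Th17 difference from naive cells is linked through it, and Th17 replicate 3, alone on its slide, does not enter. The block ended the calls of Ehmt2, Hdac3, Hdac4, Kat2b, Kat5, Kat6b, Kat7, Kdm7a, Kmt2e, Kmt5a, Kmt5b, Setd2, Setd4, Setdb1 and Sirt1 in Th17 against naive cells (adjusted p 0.0509 to 0.265), of Eed, Kdm1a, Kdm8, Setd1a, Setd2, Sirt1, Sirt5 and Suz12 in Th1 against naive cells (adjusted p 0.106 to 0.371), and of Ezh1, Hdac4, Hdac6, Hdac9, Kdm4d, Kdm7a and Setd6 in Th17 against Th1 cells (adjusted p 0.062 to 0.152). Calls lost only within slide 1 were those of Ezh1, Hdac3, Hdac9, Kat7, Setd6 and Sirt7 (adjusted p 0.0534 to 0.0873), and only within slide 2 those of Kat2b, Setd4 and Sirt2 (adjusted p 0.0607 to 0.101). With normexp background correction, which failed on 1 array, the counts of enzymes called were 7, 6 and 0 in the same order of comparisons, with 9 at an unadjusted p under 0.05 in the last. With its local background capped, a setting chosen after seeing the data, they were 35, 30 and 16. Of all genes, 1230, 1253 and 175 were called without the cap and 9264, 9360 and 2900 with it.

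**Figure D1:**
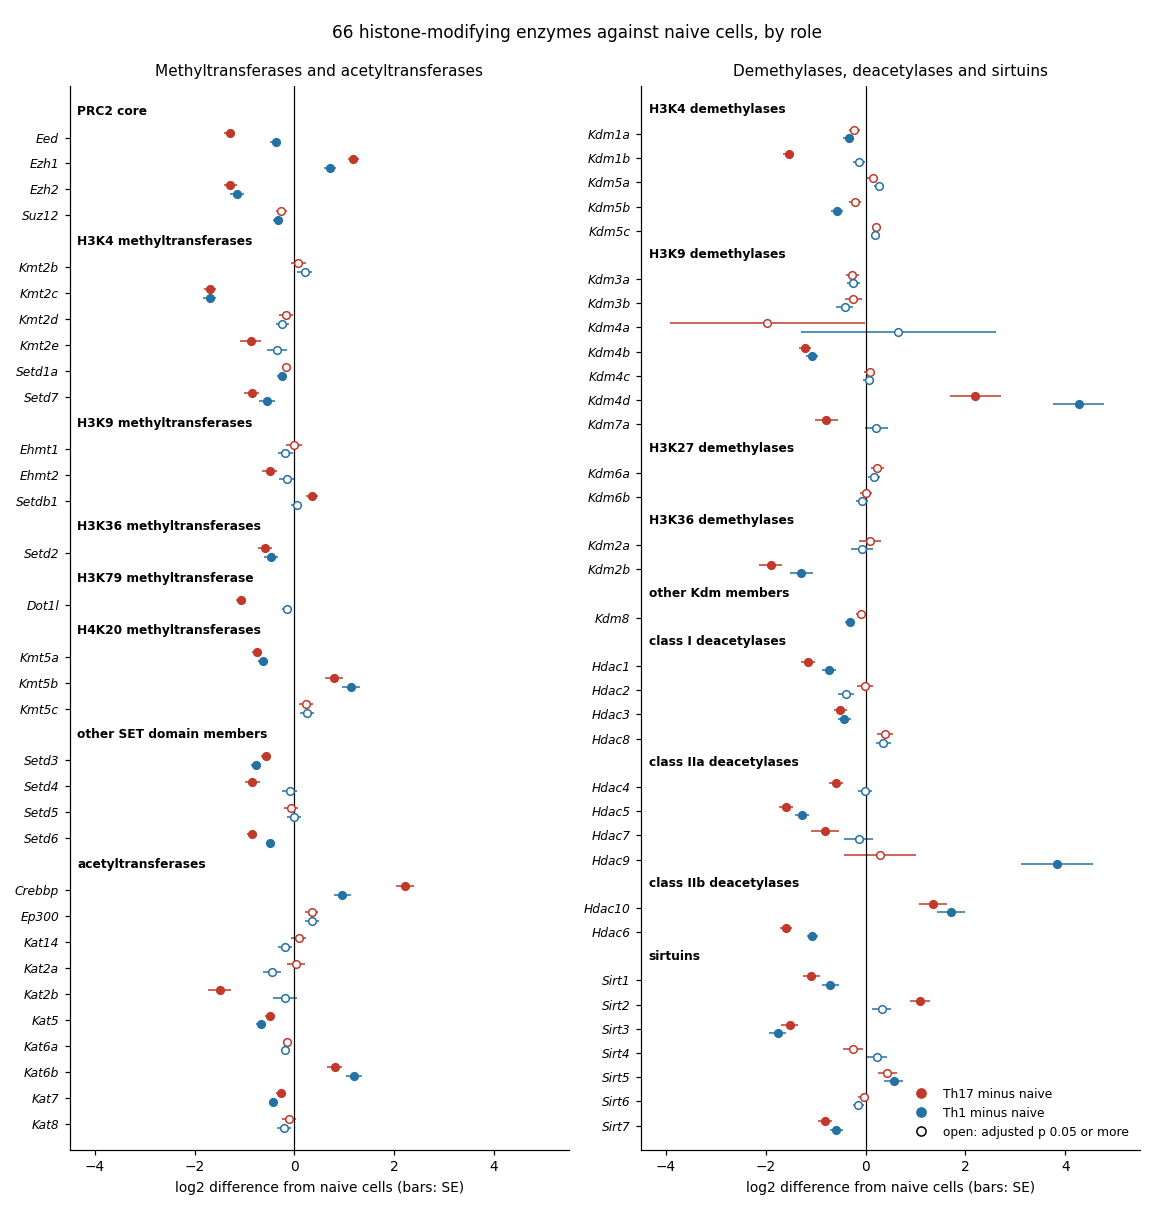
Log2 difference of each tested enzyme from naive cells, by role, for Th17 cells (red) and Th1 cells (blue), with SE bars. Filled points had an adjusted p under 0.05, 28 lower and 8 higher in Th17 cells and 24 lower and 8 higher in Th1 cells. Kdm4a, with wide bars, had 1 Th17 array at -7.58.

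PRC2 consists of a catalytic subunit, Ezh2 or its paralogue Ezh1, with the core partners Eed and Suz12. The paralogues moved in opposite directions. Ezh2, the more active enzyme and usually the form of dividing cells, was at 1.55, 1.25 and 1.68 in Th17 cells, 1.71, 1.58 and 1.58 in Th1 cells and 2.60, 2.83 and 2.90 in naive cells. The naive arrays all lay above the others, and the Th17 and Th1 arrays overlapped. The difference from naive cells was -1.28 (SE 0.14, adjusted p = 0.000109) in Th17 cells and -1.15 (SE 0.14, adjusted p = 0.000214) in Th1 cells, which is 2.43-fold and 2.22-fold lower. Between Th17 and Th1 cells Ezh2 differed by -0.13 (95% interval -0.44 to 0.19, adjusted p = 0.571).

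Ezh1, usually the form of resting and differentiated cells, was at 3.43, 3.61 and 3.71 in Th17 cells, 3.06, 3.21 and 3.07 in Th1 cells and 2.56, 2.24 and 2.41 in naive cells. The groups did not overlap, with Th17 cells highest and naive cells lowest. It rose by 1.18 (SE 0.12, adjusted p = 8.12e-05) in Th17 cells and by 0.71 (SE 0.12, adjusted p = 0.00134) in Th1 cells relative to naive cells. Ezh1 was higher in Th17 than in Th1 cells by 0.47 (SE 0.12, adjusted p = 0.0307). That last call was lost in 6 of the 9 fits that each left out 1 array (adjusted p up to 0.085), those without Th17 replicates 2 and 3, Th1 replicates 1, 2 and 3 or naive replicate 3, and the difference was 0.38 within slide 2 (adjusted p = 0.184). Within slide 1, the Th1 difference from naive cells was 0.66 (adjusted p = 0.0534). Both other Ezh1 probes gave the same direction, with 1.14 (adjusted p = 0.00011) and 1.15 (adjusted p = 0.0014) for Th17 against naive cells.

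Eed, which binds trimethylated H3K27 and spreads the mark, was at 3.52, 3.71 and 3.67 in Th17 cells, 4.54, 4.61 and 4.53 in Th1 cells and 4.74, 4.99 and 5.06 in naive cells. Th17 cells lay lowest, with no overlap between groups. Eed fell by 1.30 (SE 0.11, adjusted p = 3.21e-05) in Th17 cells relative to naive cells, or 2.46-fold. Against Th1 cells the Th17 difference was -0.93 (SE 0.11, adjusted p = 0.000954), and it was -0.96 within slide 2 (adjusted p = 0.0285). The Th1 difference from naive cells was smaller, at -0.37 (SE 0.11, adjusted p = 0.0206). It lost its call in 4 of the 9 fits that each left out 1 array (adjusted p up to 0.0797), those without Th1 replicates 1 and 3 or naive replicates 2 and 3, and was -0.39 with slide as a block (adjusted p = 0.106) and -0.22 with the scaling to always detected probes (adjusted p = 0.123).

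Suz12, the scaffold of the complex, was at 2.82, 2.70 and 2.62 in Th17 cells, 2.72, 2.69 and 2.55 in Th1 cells and 2.89, 3.14 and 2.90 in naive cells. Its naive arrays lay above the rest by a small margin. The difference was -0.26 (SE 0.11, adjusted p = 0.0705) in Th17 cells, not called, and -0.33 (SE 0.11, adjusted p = 0.0327) in Th1 cells. The Th1 call was lost without Th1 replicates 2 and 3 or naive replicates 2 and 3 (adjusted p up to 0.114), and the difference was -0.26 with slide as a block (adjusted p = 0.215).

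Summed linear levels of 14 proliferation markers were 39.7 to 45.9 in Th17 cells, 42.3 to 46.3 in Th1 cells and 52.7 to 62.8 in naive cells. The list did not move as one. Of 13 tested, Th17 cells had 6 higher and 3 lower than naive cells, and Th1 cells had 3 higher and 2 lower. These counts are 69.2% and 38.5% of those tested, where 54.2% and 53.9% of all genes were called. Mki67 was higher by 3.50 (SE 0.42, adjusted p = 0.0002) in Th17 cells and 2.5 (SE 0.42, adjusted p = 0.00127) in Th1 cells, while Pcna was lower, at -0.65 (SE 0.11, adjusted p = 0.00169) and -0.45 (SE 0.11, adjusted p = 0.0104). The part of cell division in the levels of Ezh2 was not tested.

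The H3K27 demethylases Kdm6a and Kdm6b were not called in any comparison, nor did either have an unadjusted p under 0.05 from limma. Kdm7a, which acts on H3K9 and H3K27, is described with the H3K9 demethylases. Kdm6b, which is induced by inflammatory stimuli in several cell types, was at 4.75, 5.02 and 5.11 in Th17 cells, 4.74, 4.98 and 4.96 in Th1 cells and 4.96, 5.0 and 4.93 in naive cells. All arrays lay within a narrow range. The difference from naive cells was 0.00 in Th17 cells (95% interval -0.28 to 0.28, adjusted p = 0.994) and -0.07 in Th1 cells (95% interval -0.35 to 0.21, adjusted p = 0.67). Kdm6a, its X-linked relative, was at -0.30, -0.15 and -0.21 in Th17 cells, -0.48, -0.18 and -0.19 in Th1 cells and -0.48, -0.29 and -0.59 in naive cells. The differences from naive cells were 0.24 (95% interval -0.04 to 0.52, adjusted p = 0.136) and 0.17 (95% interval -0.11 to 0.45, adjusted p = 0.268) in Th17 and Th1 cells.

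**Figure D2:**
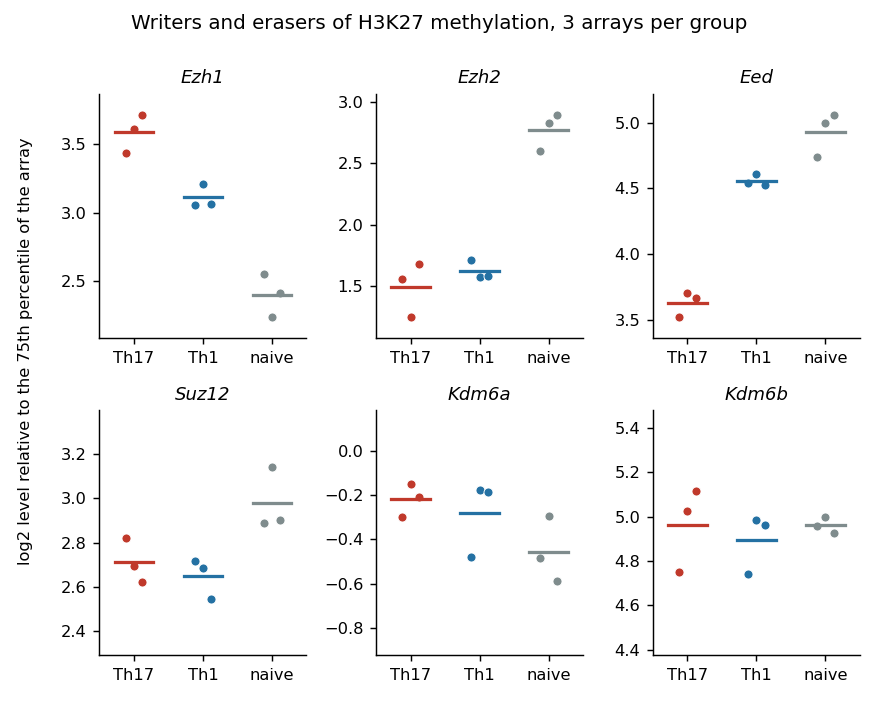
Levels of PRC2 core subunits and the H3K27 demethylases Kdm6a and Kdm6b on each array (points) with group means (lines), on the log2 scale. Ezh1 is highest and Eed lowest in Th17 cells, Ezh2 is highest in naive cells, and Kdm6b lies between 4.74 and 5.11 on all arrays.

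The upstream sequences of Ezh1 and Eed are shown because these subunits differ in both comparisons of Th17 cells, in opposite directions. Each is the 250 bases before the RefSeq start in build GRCm38.p6, printed 5' to 3' on the strand of the gene. Ezh1 lies at chr11:101226464-101226713, minus strand, and Eed at chr7:89980977-89981226, minus strand. Only windows that overlap no annotated gene are printed. Both strands were searched for TTTNGCGC (E2F), TGANTCA (AP-1), TGACGTCA (CRE), GGGCGG (GC box) and CCGGAAGT (ETS), with matches set in capitals. Neither window held any of these letters.
Ezh1: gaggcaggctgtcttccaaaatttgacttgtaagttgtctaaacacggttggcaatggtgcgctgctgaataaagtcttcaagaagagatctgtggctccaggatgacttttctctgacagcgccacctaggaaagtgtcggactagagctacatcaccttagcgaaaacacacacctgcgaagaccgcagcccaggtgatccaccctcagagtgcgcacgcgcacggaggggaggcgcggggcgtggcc
Eed: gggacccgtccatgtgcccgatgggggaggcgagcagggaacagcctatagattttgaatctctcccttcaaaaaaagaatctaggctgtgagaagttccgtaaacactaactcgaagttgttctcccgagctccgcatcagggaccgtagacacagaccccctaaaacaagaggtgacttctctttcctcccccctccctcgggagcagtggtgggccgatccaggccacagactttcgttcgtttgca
Over 57 of the 68 enzymes with a promoter in the table, 47 of 78 windows (60.3%) held a GC box, against 32.7% of all 32851 windows. AP-1 letters were in 6 of them (7.69%, against 6.75%) and ETS letters in 3 (3.85%, against 2.88%). The E2F and CRE letters were in 0 of these windows, and in 1.13% and 1.55% of all windows. The median window of the enzymes had 17.5 CG dinucleotides, against 6 over all windows.

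Accessory subunits that guide PRC2 to chromatin changed in both directions. Of 7 tested, Th17 cells had 1 higher and 2 lower than naive cells, and Th1 cells had 2 higher and 3 lower. In Th17 against Th1 cells 1 was higher and 3 were lower. Of all genes 54.2%, 53.9% and 15.8% were called in these comparisons. Jarid2, which aids PRC2 recruitment, rose by 0.82 (SE 0.14, adjusted p = 0.00169) in Th17 cells and 1.76 (SE 0.14, adjusted p = 3.02e-05) in Th1 cells, and was lower in Th17 than in Th1 cells, at -0.94 (SE 0.14, adjusted p = 0.00357). Phf19, a reader of H3K36 methylation, differed from naive cells, at -1.27 (SE 0.13, adjusted p = 8.85e-05) in Th17 cells and -0.67 (SE 0.13, adjusted p = 0.00284) in Th1 cells, and Th17 cells were lower than Th1 cells, at -0.60 (SE 0.13, adjusted p = 0.0164). Phf1, read here after its values were seen, was lower in Th17 than in Th1 cells, at -1.23 (SE 0.34, adjusted p = 0.0461). Aebp2 was higher in Th17 than in Th1 cells, by 0.64 (SE 0.09, adjusted p = 0.0027).

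PRC1 is the Polycomb complex that ubiquitinates histone H2A. Of 15 subunits tested, Th17 cells had 2 higher and 8 lower than naive cells, and Th1 cells had 2 higher and 7 lower. That is 66.7% and 60% called, against 54.2% and 53.9% of all genes, of which 29.7% and 30.4% were lower. Cbx2, a reader of H3K27 methylation, was well above background on all 3 naive arrays and on no other. It passed the filter on dim probes only through the naive arrays, so no p-value is given, though it counts among the lower subunits. By a bound on the fold, it was at least 6.02-fold lower in Th17 cells and at least 4.76-fold lower in Th1 cells. For these bounds the dim group took, on each array, the signal of the dimmest detected probe or its own if higher. Rnf2, the catalytic ubiquitin ligase, differed from naive cells by -1.10 (SE 0.12, adjusted p = 0.000152) in Th17 cells and by -0.90 (SE 0.12, adjusted p = 0.000468) in Th1 cells. Between Th17 and Th1 cells 0 of the 15 were called by limma, where 15.8% of all genes were called, and 1 higher and 2 lower had an unadjusted p under 0.05.

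Among 6 H3K4 methyltransferases tested, 3 fell and 0 rose in either population relative to naive cells, and 0 were called between Th17 and Th1 cells by limma, 1 of them with an unadjusted p under 0.05. That is 50% called in Th17 and in Th1 cells, against 54.2% and 53.9% of all genes. Between Th17 and Th1 cells 15.8% of all genes were called. Kmt2c, which methylates H3K4 at enhancers, was at -1.39, -1.36 and -1.26 in Th17 cells, -1.58, -1.25 and -1.20 in Th1 cells and 0.48, 0.30 and 0.30 in naive cells. The naive arrays stood clear of the other 6, which overlapped. It was 3.24-fold lower in Th17 cells, a difference of -1.69 (SE 0.12, adjusted p = 1.46e-05), and 3.25-fold lower in Th1 cells, a difference of -1.70 (SE 0.12, adjusted p = 1.56e-05). Within slide 1 the Th1 difference was -1.94. Its relative Kmt2d was at -0.28, -0.38 and 0.08 in Th17 cells, -0.18, -0.33 and -0.29 in Th1 cells and 0.13, -0.06 and -0.14 in naive cells. The Th17 arrays of Kmt2d overlapped both other groups, and its Th1 arrays lay just below the naive arrays. The differences from naive cells were -0.17 (95% interval -0.49 to 0.15, adjusted p = 0.336) and -0.24 (95% interval -0.56 to 0.08, adjusted p = 0.181) in Th17 and Th1 cells.

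Setd7, which monomethylates H3K4 and other proteins, fell by 0.86 in Th17 cells (adjusted p = 0.00165) and by 0.55 in Th1 cells (adjusted p = 0.0149). The Th1 call was lost without naive replicate 2 (adjusted p = 0.0548). Kmt2e fell in Th17 cells, by 0.88 (adjusted p = 0.00643), and its second probe was called lower in Th1 cells too, at -0.80 (adjusted p = 0.000898). Setd1a passed in Th1 cells, at -0.25 (adjusted p = 0.0365), and lost the call in 7 of the 9 fits that each left out 1 array (adjusted p up to 0.12), those without Th17 replicates 1 and 2, Th1 replicates 1, 2 and 3 or naive replicates 1 and 2. Among 11 subunits shared by these enzyme complexes, Th17 cells had 1 higher and 3 lower than naive cells, and Th1 cells had 1 higher and 5 lower. These counts are 36.4% and 54.5% of the list, where 54.2% and 53.9% of all genes were called. Men1, which tethers Kmt2a and Kmt2b, differed by -1.40 (SE 0.13, adjusted p = 4.77e-05) in Th17 and -1.32 (SE 0.13, adjusted p = 7.12e-05) in Th1 cells. Ash2l, a core subunit, was higher by 0.71 (SE 0.08, adjusted p = 0.000159) and 0.36 (SE 0.08, adjusted p = 0.00528), and higher in Th17 than in Th1 cells by 0.34 (SE 0.08, adjusted p = 0.0235).

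Dot1l, the H3K79 methyltransferase, was at 3.44, 3.33 and 3.29 in Th17 cells, 4.44, 4.16 and 4.24 in Th1 cells and 4.49, 4.40 and 4.37 in naive cells. All Th17 arrays lay below the other 6, which overlapped. The Th17 difference was -1.07 (SE 0.10, adjusted p = 6.72e-05) from naive cells and -0.92 (SE 0.10, adjusted p = 0.000723) from Th1 cells. Within slide 2 the difference from Th1 cells was -0.81 (adjusted p = 0.0353). Th1 and naive cells differed by -0.14 (95% interval -0.38 to 0.09, adjusted p = 0.278).

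Of 3 H3K9 methyltransferases tested, 1 rose and 1 fell in Th17 cells relative to naive cells, and 0 were called in Th1 cells by limma, none with an unadjusted p under 0.05. That is 66.7% called in Th17 cells, against 54.2% of all genes, while 53.9% of all genes were called in Th1 cells. Ehmt2, also called G9a, was at 2.46, 2.28 and 2.33 in Th17 cells, 2.64, 2.52 and 2.94 in Th1 cells and 3.08, 2.60 and 2.86 in naive cells. Th17 arrays lay below the rest, at -0.49 (SE 0.15, adjusted p = 0.0256) from naive cells. The call was lost in 4 of the 9 fits that each left out 1 array (adjusted p up to 0.0821), those without Th17 replicates 2 and 3 or naive replicates 1 and 3, and the difference was -0.57 with slide as a block (adjusted p = 0.229). Its partner Ehmt1 was not called in any comparison. Setdb1, which silences repeats, was at -0.76, -0.80 and -1.03 in Th17 cells, -1.24, -1.22 and -1.06 in Th1 cells and -1.10, -1.36 and -1.18 in naive cells. Th17 arrays lay above the others, with a narrow gap to the Th1 arrays. Setdb1 was higher in Th17 than in naive cells, by 0.35 (SE 0.12, adjusted p = 0.0333). Without Th17 replicates 1 and 2, Th1 replicate 2 or naive replicates 2 and 3 the call was lost (adjusted p up to 0.114), and the difference was 0.33 with slide as a block (adjusted p = 0.251).

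Setd2, which trimethylates H3K36, differed from naive cells, at -0.59 in Th17 cells (adjusted p = 0.00624) and -0.47 in Th1 cells (adjusted p = 0.0192). The Th17 value was -0.38 with slide as a block (adjusted p = 0.232), and the Th1 call was lost without Th1 replicates 2 and 3 or naive replicate 2. Kmt5a, which monomethylates H4K20, differed by -0.75 (adjusted p = 0.000415) and -0.63 (adjusted p = 0.00104), the Th17 value being -0.62 with slide as a block (adjusted p = 0.052). Kmt5b, which adds further methyl groups to H4K20, was at -0.77, -0.22 and -0.28 in Th17 cells, -0.10, 0.18 and -0.34 in Th1 cells and -1.17, -1.28 and -1.19 in naive cells by its brightest probe. Naive arrays were lowest. That probe was higher by 0.79 (SE 0.18, adjusted p = 0.00587) in Th17 cells and 1.13 (SE 0.18, adjusted p = 0.000997) in Th1 cells. The 2 dimmer probes gave 0.06 (adjusted p = 0.709) and 0.24 (adjusted p = 0.0694) for Th17 cells, and 0.03 (adjusted p = 0.86) and 0.16 (adjusted p = 0.206) for Th1 cells. All 3 probes of Kmt5b gave a positive difference, but they disagreed in size and only the brightest was called.

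Among 4 other SET domain genes, Setd6 methylates the NF-kappa-B subunit RelA. It was at 1.78, 1.76 and 1.62 in Th17 cells, 2.08, 2.14 and 2.04 in Th1 cells and 2.60, 2.49 and 2.62 in naive cells. The groups did not overlap, with Th17 cells lowest and naive cells highest. The Th17 difference was -0.85 (SE 0.09, adjusted p = 0.000106) from naive cells and -0.37 (SE 0.09, adjusted p = 0.0281) from Th1 cells, and the Th1 difference from naive cells was -0.48 (SE 0.09, adjusted p = 0.00226). The call between Th17 and Th1 cells was lost in 7 of the 9 fits that each left out 1 array (adjusted p up to 0.102), those without Th17 replicates 1, 2 and 3, Th1 replicates 1, 2 and 3 or naive replicate 3, and the difference was -0.32 within slide 2 (adjusted p = 0.192). Setd4 was at 2.11, 2.23 and 1.66 in Th17 cells, 2.86, 2.74 and 2.67 in Th1 cells and 2.85, 2.82 and 2.87 in naive cells. The Th17 arrays lay lowest, at -0.85 (SE 0.15, adjusted p = 0.00166) from naive and -0.76 (SE 0.15, adjusted p = 0.0112) from Th1 cells. The values were -0.52 with slide as a block (adjusted p = 0.0509) and -0.53 within slide 2 (adjusted p = 0.0837). Setd3, which methylates actin, was lower, at -0.56 (adjusted p = 0.00159) in Th17 and -0.77 (adjusted p = 0.000326) in Th1 cells.

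Of the H3K4 demethylases, Kdm1b was lower in Th17 cells than in both other groups. Kdm1b, an amine oxidase that removes H3K4 methyl groups, was at -0.42, -0.53 and -0.53 in Th17 cells, 0.99, 0.79 and 0.99 in Th1 cells and 0.85, 1.11 and 1.19 in naive cells. All Th17 arrays were lower than the other 6, which overlapped. Th17 cells differed by -1.54 (SE 0.12, adjusted p = 1.81e-05) from naive cells, or 2.92-fold lower, and -1.41 (SE 0.12, adjusted p = 0.000145) from Th1 cells, or 2.67-fold lower. Within slide 2 the difference from Th1 cells was -1.36 (adjusted p = 0.0147). Th1 and naive cells differed by -0.13 (95% interval -0.40 to 0.14, adjusted p = 0.38). Its paralogue Kdm1a, also called LSD1, fell in Th1 cells, by 0.34 (adjusted p = 0.0299), a call lost without Th1 replicates 2 and 3 or naive replicates 2 and 3. In Th17 cells Kdm1a differed from naive cells, at -0.23 (adjusted p = 0.118). Kdm5b, another H3K4 demethylase, fell by 0.57 in Th1 cells (adjusted p = 0.00395), whereas Kdm5a and Kdm5c were not called in any comparison.

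Kdm2b, an H3K36 demethylase that also recruits PRC1 to CpG islands, was at 3.60, 3.69 and 4.16 in Th17 cells, 3.97, 4.64 and 4.69 in Th1 cells and 5.54, 5.88 and 5.74 in naive cells. Naive arrays lay highest, and the Th17 and Th1 arrays overlapped. The difference was -1.90 (SE 0.23, adjusted p = 0.000199) in Th17 cells, or 3.74-fold lower, and -1.29 (SE 0.23, adjusted p = 0.00164) in Th1 cells. Its second probe gave -1.88 (adjusted p = 0.00042) and -1.34 (adjusted p = 0.0026). With slide as a block these differences were -2.77 and -1.75. Between Th17 and Th1 cells Kdm2b differed by -0.62 (SE 0.23, adjusted p = 0.106), not called, and by -1.02 within slide 2 (adjusted p = 0.0189). Kdm2a was not called in any comparison.

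Among 7 H3K9 demethylases, Kdm4b was at 0.85, 1.13 and 0.86 in Th17 cells, 0.93, 1.15 and 1.18 in Th1 cells and 2.14, 2.16 and 2.20 in naive cells. The naive arrays stood apart from the others. It was lower, at -1.22 (SE 0.11, adjusted p = 5.54e-05) in Th17 cells and -1.08 (SE 0.11, adjusted p = 0.000116) in Th1 cells. Kdm4d, a relative without the reader domains of Kdm4b, was at -2.89, -3.49 and -4.29 in Th17 cells, -0.59, -1.85 and -1.99 in Th1 cells and -5.10, -6.49 and -5.66 in naive cells. It was well above background on all Th17 and Th1 arrays and on no naive array, and the Th1 arrays were highest. The bound described for Cbx2 holds only for the processed intensities. By it Kdm4d was at least 3.01-fold higher in Th17 cells and at least 12.7-fold higher in Th1 cells than in naive cells. Kdm4d passed the filter on dim probes only through the Th17 and Th1 arrays. No p-value against naive cells is therefore given, though it counts among the higher enzymes. With the capped normexp correction the Th17 difference was 0.58, not called, and the Th1 difference 1.78. Both lie below these bounds, so the sizes depend on the background correction. Between the effector groups Th17 cells were lower, at -2.08 (SE 0.51, adjusted p = 0.028). That call was lost without Th17 replicates 2 and 3 or Th1 replicates 1 and 2 (adjusted p up to 0.0785), and the difference was -1.27 within slide 2 (adjusted p = 0.056).

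Kdm7a, which removes methyl groups from H3K9 and H3K27, was at -1.16, -0.85 and -1.35 in Th17 cells, -0.38, 0.23 and -0.20 in Th1 cells and -0.59, 0.07 and -0.47 in naive cells. Th17 arrays were below all others. Th17 cells differed by -0.79 (SE 0.23, adjusted p = 0.018) from naive and -1.0 (SE 0.23, adjusted p = 0.0202) from Th1 cells. The calls were lost without Th17 replicate 3 or naive replicate 2 against naive cells, and without Th17 replicates 1 and 3 or Th1 replicates 2 and 3 against Th1 cells, with adjusted p up to 0.058 and 0.0682. They were -1.07 with slide as a block (adjusted p = 0.101) and -1.02 within slide 2 (adjusted p = 0.068). The second probe of Kdm7a gave -0.96 (adjusted p = 0.00677) and -1.02 (adjusted p = 0.0178). Kdm4a, read here after its values were seen, was at 0.69, -7.58 and 1.0 in Th17 cells, 0.68, 0.65 and 0.65 in Th1 cells and 0.18, -0.16 and -0.01 in naive cells. Th17 replicate 2 was not well above background. Without it Kdm4a was higher by 0.84 in Th17 cells (adjusted p = 0.00275) and 0.65 in Th1 cells (adjusted p = 0.00442), while its second probe gave 0.03 (adjusted p = 0.874) and 0.06 (adjusted p = 0.73). Kdm3a, Kdm3b and Kdm4c were not called in any comparison. Kdm8 differed from naive cells, at -0.31 in Th1 cells (adjusted p = 0.0324), a call lost in 5 of the 9 fits that each left out 1 array (adjusted p up to 0.104), those without Th1 replicates 2 and 3 or naive replicates 1, 2 and 3.

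Crebbp and Ep300 are paralogous acetyltransferases that act at enhancers. Crebbp was at 7.69, 7.89 and 7.89 in Th17 cells, 6.70, 6.77 and 6.23 in Th1 cells and 5.33, 5.79 and 5.69 in naive cells. The 3 groups were separate, with Th17 cells highest. It rose 4.66-fold in Th17 cells, by 2.22 (SE 0.18, adjusted p = 2.25e-05), and 1.95-fold in Th1 cells, by 0.96 (SE 0.18, adjusted p = 0.00205), relative to naive cells. Th17 cells were 2.39-fold above Th1 cells, by 1.26 (SE 0.18, adjusted p = 0.00224). The differences within slides were 1.29 within slide 2 (adjusted p = 0.0479) for Th17 against Th1 cells and 1.09 within slide 1, by its 1 Th1 array, for Th1 against naive cells. Crebbp was measured by 1 probe. Ep300 was at -1.62, -1.66 and -1.21 in Th17 cells, -1.59, -1.41 and -1.46 in Th1 cells and -1.81, -1.75 and -1.95 in naive cells. Its differences from naive cells were 0.34 (SE 0.14, adjusted p = 0.0631) in Th17 and 0.35 (SE 0.14, adjusted p = 0.0576) in Th1 cells, neither called. With the scaling to always detected probes they were 0.43 (adjusted p = 0.0282) and 0.50 (adjusted p = 0.015). Between Th17 and Th1 cells Ep300 differed by -0.01 (95% interval -0.32 to 0.30, adjusted p = 0.971).

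Of 10 acetyltransferases, Th17 cells had 2 higher and 3 lower than naive cells, and Th1 cells had 2 higher and 2 lower. The shares called were 50% and 40%, against 54.2% and 53.9% of all genes. Kat2b, also called PCAF, was at -1.71, -2.07 and -2.55 in Th17 cells, -0.40, -1.08 and -0.91 in Th1 cells and -0.67, -0.51 and -0.66 in naive cells. Every Th17 array lay below the other 6. Kat2b in Th17 cells differed by -1.5 (SE 0.24, adjusted p = 0.000918) from naive and -1.31 (SE 0.24, adjusted p = 0.00759) from Th1 cells. The values were -0.69 with slide as a block (adjusted p = 0.077) and -0.90 within slide 2 (adjusted p = 0.0607). Its paralogue Kat2a was not called. Kat6b, which acetylates H3K23, was at -2.26, -2.14 and -2.46 in Th17 cells, -2.17, -1.81 and -1.71 in Th1 cells and -3.08, -2.90 and -3.29 in naive cells. Naive arrays lay lowest. It was higher by 0.80 (SE 0.16, adjusted p = 0.00302) in Th17 cells and 1.19 (SE 0.16, adjusted p = 0.000406) in Th1 cells, and the Th17 value was 0.48 with slide as a block (adjusted p = 0.168).

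Kat5, the catalytic subunit of the TIP60 complex, differed from naive cells, at -0.49 in Th17 cells (adjusted p = 0.00211) and -0.68 in Th1 cells (adjusted p = 0.000428). The Th17 value was -0.33 with slide as a block (adjusted p = 0.168). Kat7, which acetylates H3K14 and H4, differed by -0.27 (adjusted p = 0.037) and -0.42 (adjusted p = 0.00543), and its Th17 call was lost without Th17 replicates 1 and 2, Th1 replicates 2 and 3 or naive replicates 2 and 3. Kat6a, Kat8 and Kat14 were not called in any comparison.

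**Figure D3:**
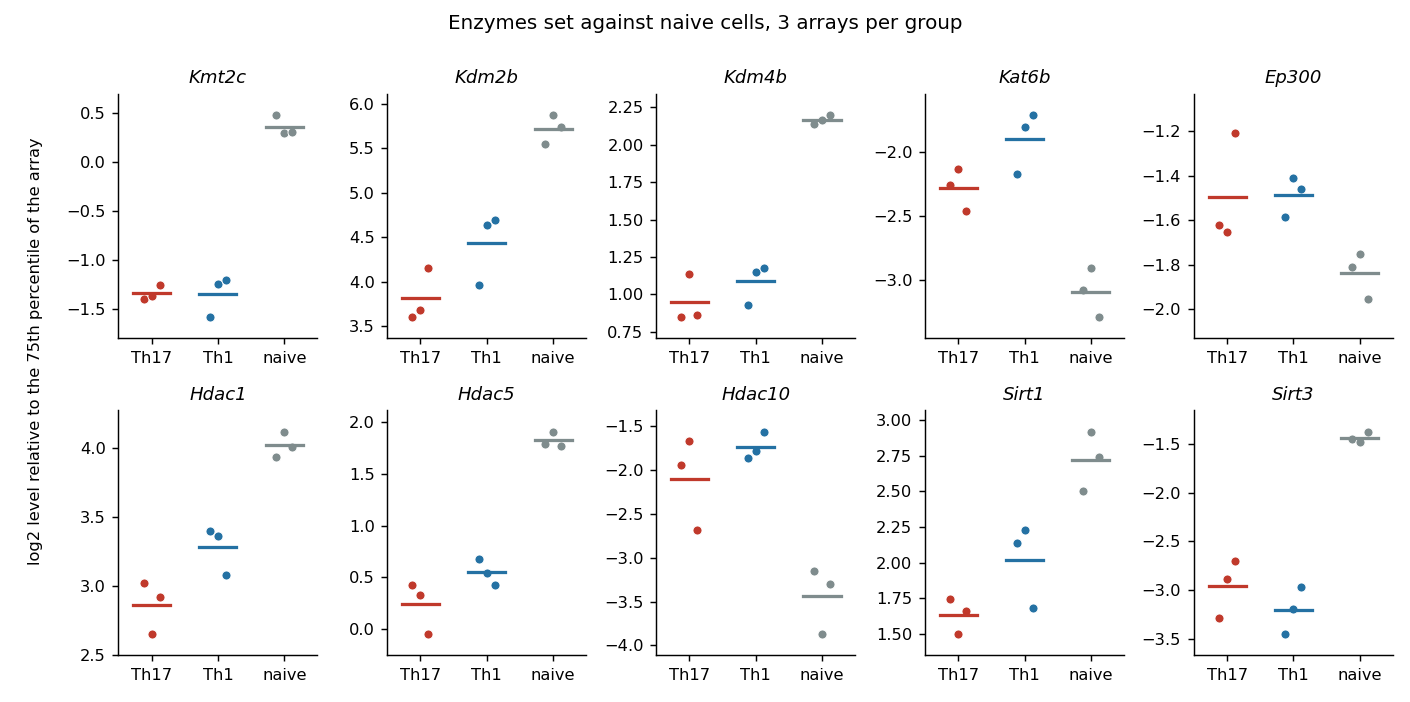
Levels of 10 enzymes on each array (points) with group means (lines), on the log2 scale. Kmt2c, Kdm2b, Kdm4b, Hdac1, Hdac5, Sirt1 and Sirt3 are highest in naive cells, Kat6b and Hdac10 are lowest there, and Ep300 was not called.

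Class I deacetylases are mostly nuclear and act in corepressor complexes. Hdac1 was at 3.02, 2.65 and 2.92 in Th17 cells, 3.39, 3.36 and 3.08 in Th1 cells and 3.93, 4.12 and 4.0 in naive cells. Naive arrays lay highest and Th17 arrays lowest. It fell by 1.15 (SE 0.13, adjusted p = 0.000171) in Th17 cells and by 0.74 (SE 0.13, adjusted p = 0.00192) in Th1 cells relative to naive cells. Both other probes were lower too, at -1.66 (adjusted p = 2.94e-05) and -1.07 (adjusted p = 8.37e-05) in Th17 cells. Between Th17 and Th1 cells Hdac1 differed by -0.42 (SE 0.13, adjusted p = 0.0709), not called, while the second brightest probe gave -0.65 (adjusted p = 0.0154). Its paralogue Hdac2 was not called. Hdac3, the enzyme of the NCoR complexes, differed from naive cells, at -0.51 (adjusted p = 0.0123) in Th17 cells and -0.43 (adjusted p = 0.0268) in Th1 cells. The Hdac3 differences were -0.65 (adjusted p = 0.0822) and -0.57 (adjusted p = 0.0402) with slide as a block, and the Th1 call was lost without Th1 replicates 1 and 2 or naive replicates 1 and 3. Hdac8 was not called by its brightest probe, at 0.38 in Th17 cells (adjusted p = 0.0706), and its second probe gave 0.97 (adjusted p = 0.00584).

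Class IIa deacetylases shuttle between nucleus and cytoplasm in response to signals. Hdac5 was at 0.43, 0.33 and -0.05 in Th17 cells, 0.68, 0.54 and 0.43 in Th1 cells and 1.79, 1.91 and 1.77 in naive cells. The naive arrays were highest, clear of both other groups. It was 3.01-fold lower in Th17 cells, at -1.59 (SE 0.14, adjusted p = 3.85e-05), and 2.42-fold lower in Th1 cells, at -1.28 (SE 0.14, adjusted p = 0.000135). Hdac4 was at 0.72, 0.58 and 0.37 in Th17 cells, 1.19, 0.98 and 1.23 in Th1 cells and 1.34, 1.15 and 0.95 in naive cells. Its Th17 arrays lay below the other 6. Hdac4 in Th17 cells differed by -0.59 (SE 0.14, adjusted p = 0.00767) from naive and -0.58 (SE 0.14, adjusted p = 0.0267) from Th1 cells. The values were -0.41 with slide as a block (adjusted p = 0.265) and -0.46 within slide 2 (adjusted p = 0.161), and the call against Th1 cells was lost without Th17 replicates 2 and 3 or Th1 replicates 1 and 3.

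Hdac9 was highest in Th1 cells. It was at -5.04, -5.71 and -5.86 in Th17 cells, -1.62, -2.08 and -2.29 in Th1 cells and -7.24, -6.29 and -3.95 in naive cells. Hdac9 was well above background on 1 of 3 Th17 arrays, all 3 Th1 arrays and 1 of 3 naive arrays, so the sizes of the differences from Th1 cells are uncertain. It passed the filter on dim probes only through the Th1 arrays, where it is high. No p-value is therefore given for differences from Th1 cells, though Hdac9 counts among the enzymes called. The Th1 difference from naive cells was 3.83 (SE 0.72), and the Th17 difference from Th1 cells was -3.54 (SE 0.72). With the capped normexp correction they were 1.35 and -1.34. The values were 4.20 within slide 1 and -3.19 within slide 2, and -3.19 with slide as a block, not called, for Th17 against Th1 cells. Th17 and naive cells overlapped, with a difference of 0.29 (95% interval -1.36 to 1.94), and of 1.23 without naive replicate 3 (adjusted p = 0.0266). Hdac7, which represses in thymocytes until signals export it, was at 2.08, 2.46 and 3.20 in Th17 cells, 2.82, 3.46 and 3.49 in Th1 cells and 3.42, 3.29 and 3.48 in naive cells. Th17 arrays were spread widely. The differences were -0.82 (SE 0.29, adjusted p = 0.0395) in Th17 cells and -0.14 (SE 0.29, adjusted p = 0.703) in Th1 cells. The Th17 call was lost without Th17 replicates 1 and 2, Th1 replicate 2 or naive replicates 1, 2 and 3 (adjusted p up to 0.119). With slide as a block the Th17 difference from naive cells was -1.78 (adjusted p = 0.00379), the Th1 difference -0.58 (adjusted p = 0.0405) and that between Th17 and Th1 cells -1.20 (adjusted p = 0.00558).

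The class IIb enzymes moved in opposite directions. Hdac6, a cytoplasmic tubulin deacetylase, was at -0.98, -1.16 and -1.08 in Th17 cells, -0.36, -0.59 and -0.70 in Th1 cells and 0.54, 0.43 and 0.60 in naive cells. The groups did not overlap, with Th17 cells lowest. The Th17 difference was -1.59 (SE 0.11, adjusted p = 1.39e-05) from naive cells, the Th1 difference -1.07 (SE 0.11, adjusted p = 0.000122), and the difference between Th17 and Th1 cells -0.52 (SE 0.11, adjusted p = 0.0174). The last call was lost without Th17 replicate 2 or Th1 replicate 2 (adjusted p up to 0.0581), and was -0.43 within slide 2 (adjusted p = 0.15). The second probe gave -1.65 (adjusted p = 7.54e-06), -1.07 (adjusted p = 8.03e-05) and -0.58 (adjusted p = 0.00788). Hdac10, a polyamine deacetylase, was at -1.94, -1.67 and -2.69 in Th17 cells, -1.87, -1.78 and -1.56 in Th1 cells and -3.15, -3.87 and -3.31 in naive cells. The naive arrays lay lowest. It was 2.53-fold higher in Th17 cells, at 1.34 (SE 0.28, adjusted p = 0.00381), and 3.26-fold higher in Th1 cells, at 1.70 (SE 0.28, adjusted p = 0.00115). The second probe of Hdac10 gave 1.28 (adjusted p = 0.000979) and 1.40 (adjusted p = 0.000633).

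Subunits of the Sin3, NuRD, NCoR and CoREST complexes, in which class I enzymes work, were read as a list of 19 tested genes. Th17 cells had 6 higher and 8 lower than naive cells, Th1 cells had 1 higher and 10 lower, and Th17 cells had 4 higher and 0 lower than Th1 cells. In the same order, 73.7%, 57.9% and 21.1% of the list were called, against 54.2%, 53.9% and 15.8% of all genes. Gatad2a, a NuRD subunit, differed from naive cells, at -1.19 (SE 0.10, adjusted p = 3.94e-05) in Th17 cells and -1.55 (SE 0.10, adjusted p = 1.07e-05) in Th1 cells. Sin3a, the scaffold of its complex, differed by -0.95 (SE 0.09, adjusted p = 6.11e-05) and -0.77 (SE 0.09, adjusted p = 0.000216). Tbl1xr1, an NCoR subunit, went the other way, by 2.01 (SE 0.13, adjusted p = 8.55e-06) and 1.67 (SE 0.13, adjusted p = 2.34e-05). Sap30, another Sin3 subunit, was higher in Th17 than in Th1 cells, by 1.07 (SE 0.13, adjusted p = 0.00108), as was Mbd2, a methyl-CpG reader of NuRD, by 0.79 (SE 0.16, adjusted p = 0.0115).

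Sirtuins are NAD-dependent deacylases, found in the nucleus (Sirt1, Sirt6, Sirt7), the cytoplasm (Sirt2) and mitochondria (Sirt3, Sirt4, Sirt5). Of 7 tested, 3 fell and 1 rose in each population relative to naive cells. That is 57.1% called in each, against 54.2% of all genes in Th17 cells and 53.9% in Th1 cells. Sirt1 was at 1.74, 1.5 and 1.66 in Th17 cells, 2.14, 2.23 and 1.68 in Th1 cells and 2.5, 2.92 and 2.74 in naive cells. Naive arrays lay highest, and Th17 and Th1 arrays overlapped. The difference was -1.09 (SE 0.17, adjusted p = 0.000913) in Th17 cells and -0.71 (SE 0.17, adjusted p = 0.0083) in Th1 cells. With slide as a block the values were -0.92 (adjusted p = 0.0988) and -0.59 (adjusted p = 0.122). Sirt3 was at -3.29, -2.89 and -2.70 in Th17 cells, -3.45, -3.19 and -2.97 in Th1 cells and -1.45, -1.49 and -1.38 in naive cells. The naive arrays were far above the rest. Sirt3 was 2.87-fold lower in Th17 cells, at -1.52 (SE 0.17, adjusted p = 0.000158), and 3.39-fold lower in Th1 cells, at -1.76 (SE 0.17, adjusted p = 7.65e-05). Within slide 1 the Th1 difference was -2.01.

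Sirt2 went the other way. It was at 1.78, 1.17 and 1.31 in Th17 cells, 0.93, 0.45 and 0.60 in Th1 cells and 0.55, 0.14 and 0.32 in naive cells. The Th17 arrays lay highest, while Th1 and naive arrays overlapped. The Th17 difference was 1.08 (SE 0.20, adjusted p = 0.00192) from naive and 0.76 (SE 0.20, adjusted p = 0.0334) from Th1 cells, and the Th1 difference from naive cells was 0.32 (SE 0.20, adjusted p = 0.203). The call between Th17 and Th1 cells was lost without Th17 replicates 1 and 3, Th1 replicates 2 and 3 or naive replicate 3 (adjusted p up to 0.112), and the difference was 0.95 within slide 2 (adjusted p = 0.101). Sirt7 differed from naive cells, at -0.81 in Th17 cells (adjusted p = 0.00129) and -0.59 in Th1 cells (adjusted p = 0.00681). Sirt5 was called in Th1 cells, at 0.56 (adjusted p = 0.0311), and lost the call without Th1 replicates 1 and 3 or naive replicates 2 and 3. Sirt6 was not called. The brighter Sirt4 probe was not called, whereas the dimmer one was higher in Th17 cells, by 0.97 (adjusted p = 0.000828) from naive and 0.81 (adjusted p = 0.00859) from Th1 cells.

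The windows before Hdac5 and Sirt1 are shown for comparison with those of Ezh1 and Eed, since both genes were lower in Th17 and in Th1 cells than in naive cells. Hdac5 lies at chr11:102230173-102230422, minus strand, and Sirt1 at chr10:63339036-63339285, minus strand, in GRCm38.p6 from RefSeq. Capitals mark GGGCGG or its complement CCGCCC, and neighbouring matches can overlap. Hdac5 held 1 and Sirt1 6, and the other motifs were in neither window.
Hdac5: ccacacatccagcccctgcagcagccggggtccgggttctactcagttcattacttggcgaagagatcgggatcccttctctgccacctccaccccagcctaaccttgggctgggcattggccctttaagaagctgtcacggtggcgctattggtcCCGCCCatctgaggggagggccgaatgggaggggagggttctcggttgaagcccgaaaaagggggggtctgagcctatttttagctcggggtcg
Sirt1: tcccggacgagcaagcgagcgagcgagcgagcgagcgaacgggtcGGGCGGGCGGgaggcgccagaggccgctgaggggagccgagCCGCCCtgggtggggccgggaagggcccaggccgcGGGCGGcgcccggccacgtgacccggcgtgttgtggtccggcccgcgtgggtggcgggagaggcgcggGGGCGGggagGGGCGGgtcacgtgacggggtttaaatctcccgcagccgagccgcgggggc
The windows of Hdac5, Sirt1, Ezh1 and Eed had 12, 39, 14 and 12 CG dinucleotides.

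**Figure D4:**
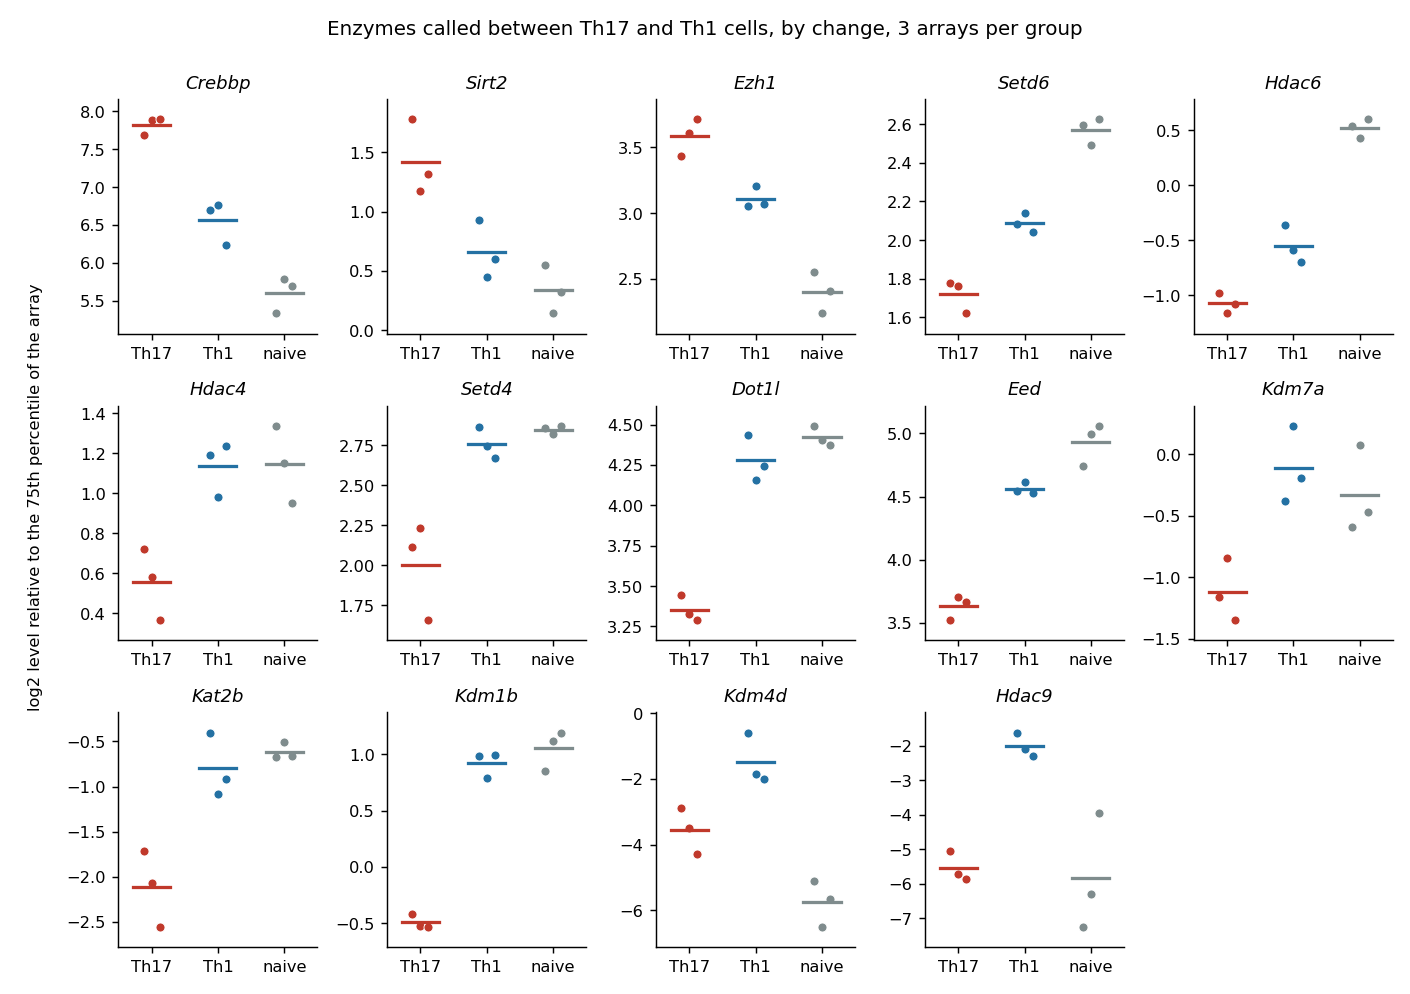
Levels of the 14 enzymes called between Th17 and Th1 cells on each array (points) with group means (lines), on the log2 scale, ordered from the largest rise to the largest fall in Th17 cells. Crebbp, Sirt2 and Ezh1 are highest in Th17 cells. Dot1l, Eed, Hdac4, Hdac6, Kat2b, Kdm1b, Kdm7a, Setd4 and Setd6 are lower there than in both other groups.

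Among the 14 enzymes called between Th17 and Th1 cells, Th17 arrays overlapped Th1 arrays for none, while 35.4% of all genes had no overlap. The calls come from these same arrays, so the lack of overlap adds no support. Over fits that each left out 1 array, 7 of the 14 kept their call in all 9, namely Crebbp, Dot1l, Eed, Hdac9, Kat2b, Kdm1b and Setd4. Since Hdac9 passed the filter on dim probes only through the Th1 arrays, its calls add no support. The counts that kept their call in all 9 fits were 31 of 36 for Th17 against naive cells and 23 of 32 for Th1 against naive cells. Within slide 2, Crebbp, Dot1l, Eed, Hdac9 and Kdm1b were called, as were Hdac7 and Kdm2b, which the fit over all arrays did not call between these groups. Calls kept in every fit other than the failed normexp one, left-out arrays and slide fits included, numbered 19 of 36 in Th17 against naive cells, 16 of 32 in Th1 against naive cells and 4 of 14 in Th17 against Th1 cells. The 4 were Crebbp, Dot1l, Eed and Kdm1b.

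Of the 66 enzymes, 23 were called in no comparison. This count was not set against that of all genes, so it does not show whether the enzymes differ from them. Among the 23 were the H3K4 methyltransferase Kmt2b, the H4K20 methyltransferase Kmt5c, Setd5, and several enzymes named above. Leaving aside Kdm4a, for which 1 array decides the value, the differences from naive cells lay between -0.26 and 0.38 in Th17 cells and between -0.46 and 0.36 in Th1 cells. Differences between Th17 and Th1 cells lay between -0.48 and 0.49. The 95% intervals reached from -0.71 to 0.74 in Th17 against naive cells, from -0.87 to 0.72 in Th1 against naive cells and from -0.94 to 0.91 in Th17 against Th1 cells. With the scaling to always detected probes, Kdm5c was called higher in both comparisons with naive cells, Hdac8 and Ep300 likewise, and Kdm5a and Kmt5c in Th1 cells.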

How the data were processed

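RNA of 9 sorted samples was hybridised to 1-colour Agilent arrays. Per the file headers, Feature Extraction 10.7.3.1 made the deposited intensities, whereas the submitters' processing notes name 10.5. The intensities were already background-subtracted by the scanner software. The deposited table of log2 values equals the scanner values apart from a constant per probe and per array (column medians -0.0959 to 0.285), and its baseline is not stated.

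Processed intensities were turned into log2 values, less the 75th percentile of the array, after 1377 control spots of 44397 had been left out. Probes well above background on at least 3 of 9 arrays were kept, 23207 in all, and the brightest probe stood for a gene. Of the 19063 genes tested, 13072 had a RefSeq symbol. Of 39429 probes, 27234 had one, and the rest kept the array's identifiers. Differences were tested with limma 3.58.1 (R 4.3.3; lmFit and eBayes over all 3 groups, Benjamini-Hochberg adjustment), which was tested on simulated data. Enzymes and gene lists were chosen with earlier results of these data known. Values per array are given for enzymes called and changed at least 2-fold in any comparison, for those called between Th17 and Th1 cells, and for a fixed 16 (Kmt2a among them). Of each other list, up to 3 called genes of smallest p per comparison are named, except for a gene that is not reported here. The files lack the mean spot signal, so normexp used the median spot signal. Other scalings, filters, probes, slide and replicate blocks and left-out arrays were tried. Deviations from the group means correlated at r -0.00687 to 0.175 between arrays of the same replicate number and at -0.197 to 0.0647 between different numbers. The labels do not say what the numbers mark and not every same-number r was above 0.1, so they were not taken as pairs.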

Additional observations from a re-analysis of the deposited data

How the results depend on the processing

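Normexp with offset 50 failed on Th1 replicate 2, where the local background reached 168530 and 6 spots had a background more than 50 above their signal. The 75th percentile after the correction was 11.42 there, against 9.0 to 9.52 on the other arrays. It called 7 enzymes and 1230 genes in Th17 against naive cells, 6 and 1253 in Th1 against naive cells, and 0 and 175 in Th17 against Th1 cells, with 9 enzymes at an unadjusted p under 0.05 (limma) in the last. Its differences for Kdm8 in Th1 against naive cells and Setd6 in Th17 against Th1 cells changed sign, to 0.23 and 0.11. With the top 0.1% of local backgrounds capped on each array, chosen after seeing the data, the counts were 35 and 9264, 30 and 9360, and 16 and 2900. Slide as a block gave 21 enzymes and 5239 genes in Th17 against naive cells and 9 enzymes and 2143 genes in Th17 against Th1 cells. Within slide 1, Th1 against naive cells gave 21 enzymes and 6546 genes, and within slide 2, Th17 against Th1 cells gave 7 and 1417, from fewer arrays. Without a filter on dim probes, 8 enzymes and 2034 of 32332 genes were called in Th17 against Th1 cells. The fit on those groups alone called 10 enzymes, and its count of all genes is not given here.

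Leaving out 1 array gave 32 to 37 enzymes and 8816 to 10323 genes in Th17 against naive cells, 25 to 35 and 8657 to 10975 in Th1 against naive cells, and 8 to 14 and 1922 to 2781 in Th17 against Th1 cells. Without Th17 replicate 2, Kdm4a was 0.84 in Th17 against naive cells, the highest value with 1 array left out, and -3.45 the lowest. The second Sirt4 probe gave 0.97 in Th17 against naive cells and 0.81 in Th17 against Th1 cells, opposite in sign to the first. With the replicate block, 34, 33 and 13 enzymes and 10281, 10160 and 3032 genes were called, in the order Th17 against naive, Th1 against naive and Th17 against Th1 cells. The authors' deposited table gave 36, 32 and 14 enzymes and 10392, 10312 and 3009 genes. Except where stated, the cause of these shifts was not tested.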

Other observations

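Histone methylation enzymes and readers outside the family names changed in both directions. Of 24 tested, Th17 cells had 8 higher and 10 lower than naive cells, and Th1 cells had 9 higher and 9 lower, with 2 higher and 1 lower in Th17 than in Th1 cells. In the same order, 75%, 75% and 12.5% of the list were called, against 54.2%, 53.9% and 15.8% of all genes. Nsd2, an H3K36 dimethyltransferase, was higher by 1.30 (SE 0.10, adjusted p = 2.18e-05) in Th17 cells and 1.87 (SE 0.10, adjusted p = 3.63e-06) in Th1 cells than in naive cells (limma, Benjamini-Hochberg adjustment), and the Th17 difference from Th1 cells was -0.57 (SE 0.10, adjusted p = 0.00782). Riox2, a ribosomal oxygenase of the JmjC family, was higher by 1.20 (SE 0.09, adjusted p = 2.04e-05) in Th17 than in naive cells and by 0.72 (SE 0.09, adjusted p = 0.00151) in Th17 than in Th1 cells. Jmjd6, a JmjC protein, differed from naive cells by -1.12 (SE 0.11, adjusted p = 7.86e-05) in Th17 cells and -0.90 (SE 0.11, adjusted p = 0.000294) in Th1 cells. Trim28, a corepressor that brings in Setdb1, differed from naive cells by -1.04 (SE 0.15, adjusted p = 0.000591) in Th1 cells.

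Acetylation readers and partners of acetyltransferases were read as another list. Of 21 tested, Th17 cells had 2 higher and 12 lower than naive cells, and Th1 cells had 1 higher and 12 lower. The shares called were 66.7% and 61.9%, against 54.2% and 53.9% of all genes. The share lower was 57.1% in each, where 29.7% and 30.4% of all genes were lower. Brpf3 and Brpf1, scaffold proteins of the Kat6 and Kat7 complexes, differed from naive cells by -1.06 (SE 0.12, adjusted p = 0.000188) and -0.82 (SE 0.10, adjusted p = 0.00021) in Th17 cells, and by -0.77 (SE 0.12, adjusted p = 0.00108) and -0.75 (SE 0.10, adjusted p = 0.000376) in Th1 cells. Hat1, which acetylates newly made histone H4, differed by -0.85 (SE 0.10, adjusted p = 0.000187) in Th17 cells and -0.55 (SE 0.10, adjusted p = 0.00196) in Th1 cells. Between Th17 and Th1 cells 2 were higher, Ing3 at 0.80 (SE 0.17, adjusted p = 0.0139) and Sgf29 at 0.45 (SE 0.13, adjusted p = 0.0446), and 2 lower, Ncoa1 at -0.52 (SE 0.10, adjusted p = 0.00985) and Ncoa2 at -0.67 (SE 0.19, adjusted p = 0.0456). That is 19% of the list called, against 15.8% of all genes (8.28% higher and 7.52% lower).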
